A study of Mus musculus with 18 samples.

Results

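Matricellular proteins are secreted molecules that sit in the extracellular matrix and modify how cells attach, migrate and lay down collagen, without being a main structural element of that matrix. In the kidney they are known to be abundant while the organ is growing, scarce in the mature organ, and made again by stromal cells after injury. The genes described here were Postn (periostin), Tgfbi (transforming growth factor beta-induced protein), Sparc (osteonectin), Smoc2, Thbs1 and Thbs2 (thrombospondins), the adhesive glycoprotein Fn1 (fibronectin), and Mgp (matrix Gla protein), a vitamin K-dependent inhibitor of soft-tissue calcification. They were chosen by gene name with earlier results of these data known, so counts of calls beside the share over all genes are descriptive. Each probe set whose annotation named such a gene and no other was taken. Of the 8 genes, 7 had such a probe set, 8 probe sets in all, of 10833 probe sets for 8251 genes on the array. The single probe set for Thbs1 also carried the symbol Pald1, so Thbs1 was not given a value.

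Kidney total RNA from 18 C57 mice was measured on Affymetrix arrays, 1 mouse per array, and the labels pair each Aprt KO mouse with a control of the same litter and sex. The groups were 3 Aprt KO mice of 1 month, 3 controls of 1 month, 6 Aprt KO mice of 7 days and 6 controls of 7 days, forming litter pairs 7 to 9 at 1 month and 1 to 6 at 7 days. The series text gives the genotypes as Aprt-/- and Aprt+/+; how the mutant allele was made is not given in the sources used here. Aprt encodes adenine phosphoribosyltransferase, which salvages adenine; in its absence adenine is oxidised to a poorly soluble compound that forms crystals in the renal tubules. Values are array signals on a linear scale. They were compared between groups within a probe set, or as sums over a marker list, and never between probe sets.

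Some arrays call for care. The brightest probe set of Aprt was dim, at the 34.9 percentile of mean signal, and on 4 arrays its signal lay nearer to the other genotype of that age. These were the 1-month Aprt KO mouse of pair 7, the 7-day Aprt KO mouse of pair 4, and the 7-day controls of pairs 1 and 2. At 86.5 the first of these was still below every 1-month control (103.9 to 109.5). The KO and control arrays are called by their labels throughout, and results are also given without these 4 arrays. The highest signal on the KO and control arrays of pair 4 was 10167 and 10767, against 25718 to 51453 on the other arrays. A call is an adjusted p under 0.05 in a limma fit to all 18 arrays, with Benjamini-Hochberg adjustment over 5744 genes, and log2 fold changes are on the log2(signal + 29) scale.

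Promoter windows in RefSeq (build GRCm38.p6, 250 bases before to 50 after a gene start) were matched for 4 of the 7 measured genes. The windows of Postn (1 of its 2), Tgfbi and Thbs2 are shown because these genes had the widest differences between ages of the group, and Tgfbi was also called between genotypes. Capitals mark matches on either strand to the TATA box TATAAA, the SMAD-type element CAGAC, the GC box GGGCGG and the CCAAT box CCAAT. The windows lie at chr3:54360857-54361156 (+ strand), chr13:56609336-56609635 (+ strand) and chr17:14694213-14694512 (- strand).
Postn: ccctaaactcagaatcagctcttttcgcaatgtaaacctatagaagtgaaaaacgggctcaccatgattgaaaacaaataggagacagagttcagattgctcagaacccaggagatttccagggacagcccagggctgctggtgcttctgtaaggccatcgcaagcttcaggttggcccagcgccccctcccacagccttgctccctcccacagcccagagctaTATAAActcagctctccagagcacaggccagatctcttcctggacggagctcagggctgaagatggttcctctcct
Tgfbi: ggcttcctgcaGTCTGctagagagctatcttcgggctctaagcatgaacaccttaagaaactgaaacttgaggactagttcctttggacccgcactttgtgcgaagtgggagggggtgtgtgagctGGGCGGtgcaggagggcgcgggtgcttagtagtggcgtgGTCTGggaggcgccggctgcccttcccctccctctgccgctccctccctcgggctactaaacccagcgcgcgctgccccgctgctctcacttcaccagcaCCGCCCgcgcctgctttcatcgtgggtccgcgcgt
Thbs2: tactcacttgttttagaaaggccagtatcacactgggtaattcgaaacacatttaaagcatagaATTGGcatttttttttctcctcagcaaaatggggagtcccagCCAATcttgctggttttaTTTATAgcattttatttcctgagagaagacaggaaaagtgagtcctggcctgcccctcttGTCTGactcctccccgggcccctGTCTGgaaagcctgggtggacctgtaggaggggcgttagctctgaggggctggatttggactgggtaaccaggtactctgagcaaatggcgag
The Postn window shown held TATAAA with its first base at -26 from the gene start. The other Postn window, not shown, held a CAGAC match at -191, a CCAAT match at 25 and no TATAAA. In the Tgfbi window the GC boxes began at -124 and 16, and the CAGAC matches at -239 and -85. The Thbs2 window held TATAAA on the reverse strand at -126, CAGAC matches at -66 and -43, and CCAAT matches at -186 and -144. These are common letters: of 32851 promoter windows, 13.6% held TATAAA, 49.6% CAGAC, 35.7% GGGCGG and 37.4% CCAAT. The AP-1 element TGANTCA, present in 7.81% of windows, was in none of the windows matched for these genes. A match describes the sequence only.

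At 1 month, Postn and Smoc2 rose in Aprt KO kidneys, and the other 5 measured genes were higher on average without passing the test. Smoc2 reached a little over 2-fold the control mean. For Postn (log2 fold change 0.96) no ratio is given, because its control mean of 113 lay below 118.6, the mean signal required of a gene. The 2 calls among 7 genes stand beside 0.296% of all genes called higher in this comparison (0.313% in either direction). The median log2 fold change was 0.53 over the 7 genes and 0.00 over all genes. The Aprt KO mouse had the higher signal in 3 of 3 litter pairs for all 7 genes, which held for 16.1% of all genes. Signals of the groups did not overlap for Smoc2 and Fn1, and such separation upward was seen for 4.2% of all genes. Those of Thbs2 did not overlap either, but all 6 were dim, below the mean signal required of a gene. With litter pair as a block Tgfbi (adjusted p = 0.0483) and Mgp (0.0434) were called as well. Calls over all genes also rose with the block, to at most 117 of 5744. Postn and Smoc2 each lost the call in 16 of 40 alternatives. Both were lost with quantile normalization, median scaling, each age fitted on its own and a pseudocount at the 40th percentile. Without the 4 arrays with an atypical Aprt signal the limma adjusted p was 0.334 for Postn and 0.0746 for Smoc2.

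At 7 days, Mgp and Tgfbi rose in Aprt KO kidneys, to 2.52-fold and 2.34-fold the control mean. No other gene of the group was called without a block. With litter pair as a block Postn (adjusted p = 0.00744) and Fn1 (0.0347) were called as well. Calls over all genes also rose with the block, to at most 522 of 5744. Smoc2 and Thbs2 had log2 fold changes of -0.02 and 0.00. Without the block 2.54% of all genes were called higher and 3.22% in either direction. The median log2 fold change was 0.29 over the 7 genes, against -0.02 over all genes. Mgp and Tgfbi were also the genes without overlap between the groups, which was the case upward for 2.05% of all genes.

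Between ages, all 7 genes fell in both genotypes. The log2 fold changes of 1 month over 7 days were lowest for Postn (-3.36 in Aprt KO mice, -3.92 in controls) and Thbs2 (-3.26 and -3.76 in the same groups). No ratio of signals is given for them, because the 1-month means of Thbs2 (79.6 in Aprt KO mice, 48.8 in controls) and of Postn in controls (113) lay below 118.6, the mean signal over all arrays required of a gene. Calls in the downward direction covered 25.3% of all genes in Aprt KO mice and 26.1% in controls.

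**Figure D1:**
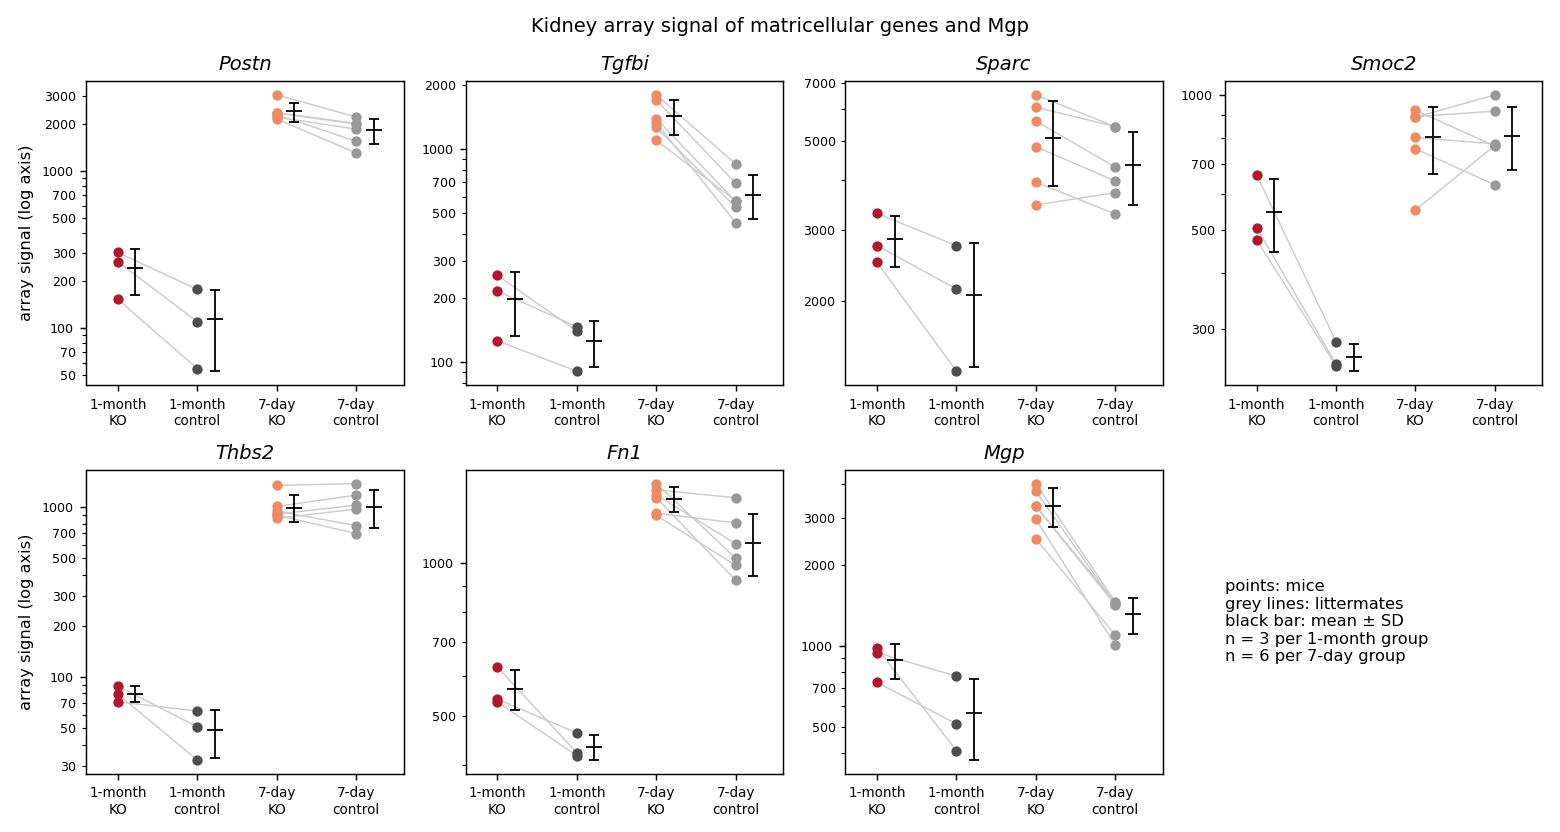
Array signal (linear units on a log axis) of the 7 measured genes in each mouse, with the group mean and SD in black and grey lines joining littermates; n = 3 per 1-month group and 6 per 7-day group. Postn and Thbs2 sit far lower at 1 month than at 7 days, Smoc2 separates the genotypes at 1 month, and Mgp and Tgfbi separate them at 7 days.

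Postn encodes periostin, which binds integrins and type I collagen and promotes collagen cross-linking. Its signal was 152, 264 and 302 in the 1-month Aprt KO mice of pairs 7, 8 and 9, against 55.0, 109 and 176 in their control littermates. The lowest KO value lay below the highest control value, so the groups overlapped, but each KO mouse was above its own littermate. Pair 7, the only female pair at 1 month, was the lowest in both genotypes and pair 9 the highest. The KO mean was 239 ± 78.3 and the control mean 113 ± 60.4 (SD, n = 3 each), a log2 fold change of 0.96 (SE 0.18, limma adjusted p = 0.0292), with litter pair as a block 0.00104. The call did not hold when single 1-month arrays were left out, except the control of pair 9: without each of the other 5 the log2 fold change was 0.82 to 1.03 and the adjusted p 0.0661 to 0.174. Leaving out either mouse of pair 7, or both, gave the same log2 fold change (0.89), so these are not separate checks. The sex term at 1 month rests on that pair, and the same holds for the other genes. It was also lost without whole pairs 1 (adjusted p = 0.0614), 2 (0.0539), 7 (0.169), 8 (0.221) and 9 (0.0731), and without the 4 arrays with an atypical Aprt signal (0.89, adjusted p = 0.334). Other processing that ended the call was a pseudocount at the 40th percentile (0.65, adjusted p = 0.194), quantile normalization (0.95, 0.0535), median scaling (0.97, 0.0633), no sex term (0.96, 0.302) and each age fitted on its own (0.96, 0.619).

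At 7 days the Postn signal ran from a lowest value of 2143 through a median of 2315 to a highest of 3058 in Aprt KO mice, against 1305.5, 1922 and 2212 in controls. The KO mouse was above its littermate in 6 of 6 pairs, by 0.23 to 0.70 on the log2 scale, while the ranges overlapped. The log2 fold change of 0.40 (SE 0.13) missed the threshold without a block (limma adjusted p = 0.120) and passed it with litter pair as a block (0.00744). Postn was the gene of this group with the largest fitted change with age: a log2 fold change of -3.36 (SE 0.16, adjusted p = 3.69e-11) in Aprt KO mice and -3.92 (SE 0.16, adjusted p = 4.46e-12) in controls. Mice of the 2 ages did not overlap in either genotype. The genotype effect of Postn at 1 month minus that at 7 days was 0.56 (SE 0.22, adjusted p = 0.671), with the block 0.0714.

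Smoc2 is a secreted calcium-binding protein of the SPARC family. Its signal was 506, 475 and 663 in the 1-month Aprt KO mice of pairs 7, 8 and 9, against 251, 249 and 282 in the controls. Every KO mouse was far above every control. Controls varied little, at 260.5 ± 18.4, against 548 ± 101 in Aprt KO mice (SD, n = 3 each). Fitted over all arrays, the log2 fold change was 0.98 (SE 0.19, limma adjusted p = 0.0306), with litter pair as a block 0.0019. Left-out arrays mattered here too: the call held without the KO mouse of pair 8 but not without any other single 1-month array (log2 fold change 0.85 to 1.02, adjusted p 0.0966 to 0.255). Pairs 2, 5, 6, 7, 8 and 9, each left out whole, gave adjusted p-values of 0.053, 0.065, 0.0604, 0.118, 0.14 and 0.329. Without the 4 arrays with an atypical Aprt signal the log2 fold change was 1.01 (adjusted p = 0.0746). The call was also lost with the pseudocount at the 40th percentile (0.82, adjusted p = 0.0807), quantile normalization (0.92, 0.0799), median scaling (0.98, 0.0845) and each age fitted on its own (0.98, 0.483).

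At 7 days Smoc2 showed a lowest, median and highest signal of 554, 848 and 925 in Aprt KO mice and 630.3, 775 and 1000.5 in controls. The ranges covered each other, and the KO mouse was higher in 3 of 6 pairs. On the log2 scale the fold change was -0.02 (SE 0.13, 95% interval -0.30 to 0.26, limma adjusted p = 0.998), and it was above 0 without the control of pair 1 (0.04), the control of pair 6 (0.02), the KO mouse of pair 4 (0.10), pair 1 (0.01) or pair 4 (0.07). The difference between the genotype effects, 1 month minus 7 days, was 1.00 (SE 0.23, limma adjusted p = 0.0798). It was called with litter pair as a block (0.00718), and without the 7-day control of pair 3 (1.06, 0.0407), the 7-day KO mouse of pair 4 (0.88, 0.0456) or pair 4 (0.91, 0.0408). As none of the 7 genes passed this test without the block, its background was 0.4% of all genes called, with 4 of the 7 and 5.34% of all genes at an unadjusted p under 0.05. With age Smoc2 fell: its log2 fold change was -0.54 in Aprt KO mice (SE 0.17, adjusted p = 0.0145), where the ages overlapped, and -1.54 in controls (SE 0.17, adjusted p = 7.85e-07), where they did not. The age call in Aprt KO mice was lost under quantile normalization (-0.42, adjusted p = 0.0724) and median scaling (-0.29, 0.243). Among left-out arrays it was lost without the 1-month KO mouse of pair 7 (-0.51, 0.148) or pair 8 (-0.43, 0.079), and without pair 7 (-0.48, 0.0676) or pair 8 (-0.43, 0.0798).

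Sparc, a collagen-binding counter-adhesive protein of the same family, was not called between genotypes at either age. Signals were 2496, 2747 and 3305 in 1-month Aprt KO mice and 1336, 2141 and 2746 in their controls. The KO mouse was higher in each pair, most clearly in pair 7, whose control was the lowest of the 6. The log2 fold change was 0.50 (SE 0.24, limma adjusted p = 1.0), with litter pair as a block 0.0532. At 7 days the lowest, median and highest values were 3470, 5228 and 6525 in Aprt KO mice and 3292, 4147 and 5441 in controls. Pairs 5 and 6, whose titles carry the prefix OA where the other 7-day mice carry M, held the highest values in both genotypes, 6074 and 6525 in KO mice and 5441 and 5437 in controls. Its log2 fold change was 0.21 (SE 0.17, adjusted p = 0.853), and it was 0.21 within the M-titled and 0.21 within the OA-titled mice. The genotype effects at the 2 ages differed by 0.30 (1 month minus 7 days, SE 0.29). Sparc fell with age, with log2 fold changes of -0.89 in Aprt KO mice (adjusted p = 0.00234) and -1.19 in controls (adjusted p = 0.000194), the smallest fitted fall of the 7 genes in controls.

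**Figure D2:**
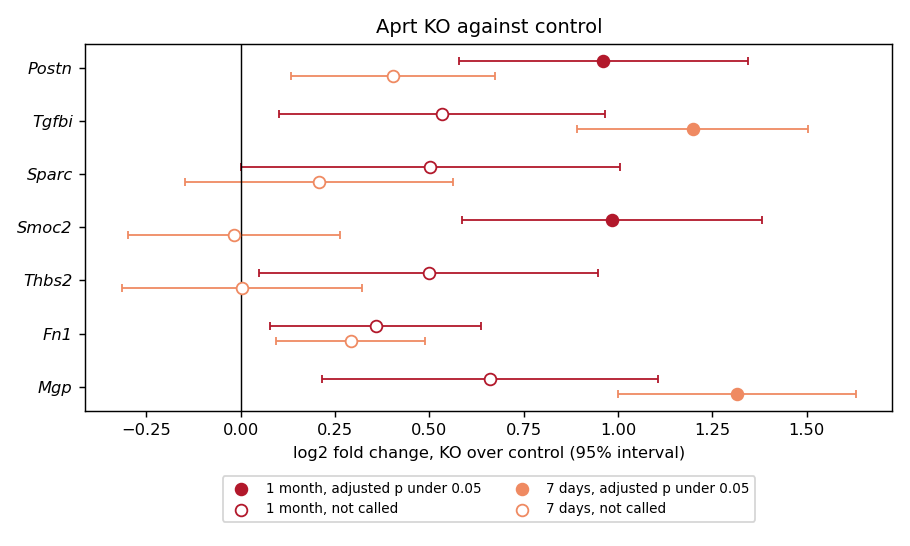
Log2 fold change of Aprt KO over control at 1 month and at 7 days for each gene, with 95% intervals from the limma fit; filled points passed an adjusted p of 0.05. Postn and Smoc2 are filled at 1 month, Mgp and Tgfbi at 7 days, and the intervals of Smoc2 at the 2 ages do not overlap.

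Thbs2 is a thrombospondin that binds CD36 and CD47 on cells and restrains angiogenesis. Its 1-month signals were 79.2, 71.3 and 88.4 in Aprt KO mice and 32.5, 63.0 and 50.9 in controls. All KO values lay above all controls, but every one was below 118.6, the mean signal required of a gene, so Thbs2 entered the test through its 7-day level. Fitted over all arrays, the log2 fold change was 0.50 (SE 0.21, limma adjusted p = 0.895), with litter pair as a block 0.147. At 7 days the lowest, median and highest signals were 859, 929 and 1343 in Aprt KO mice and 699, 1001 and 1377 in controls, and the KO mouse was higher in 2 of 6 pairs. The fitted difference was 0.00 (SE 0.15, 95% interval -0.31 to 0.32), and its sign changed when single mice were left out. The effect at 1 month minus that at 7 days was 0.49 (SE 0.26, 95% interval -0.06 to 1.04). With age the gene fell, with log2 fold changes of -3.26 in Aprt KO mice (SE 0.19, adjusted p = 3.31e-10) and -3.76 in controls (SE 0.19, adjusted p = 4.09e-11). Because of the constant added before the logarithm, these values are smaller than the ratio of mean signals.

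Tgfbi encodes a secreted adhesion protein, first described as a transcript induced by TGF-beta, that binds collagens and integrins. At 7 days its signals spanned a lowest value of 1103, a median of 1364 and a highest of 1805 in Aprt KO mice, against 452, 572 and 855 in controls. The lowest KO mouse stood above the highest control, and the KO mouse was higher in 6 of 6 pairs, by 0.91 to 1.501 on the log2 scale. Means were 1435 ± 269 and 613 ± 142 (SD, n = 6 each), a log2 fold change of 1.20 (SE 0.15, limma adjusted p = 3.52e-05). Without the 4 arrays with an atypical Aprt signal it was 1.02 (adjusted p = 0.00283). Within the M-titled mice it was 1.18 (adjusted p = 0.00755) and within the OA-titled mice 1.23 (adjusted p = 0.0222).

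At 1 month the Tgfbi signals were 126, 255 and 216 in Aprt KO mice and 90.5, 140 and 146 in controls. The groups overlapped through the KO mouse of pair 7, which was still above its littermate. The log2 fold change of 0.53 (SE 0.21) was not called (limma adjusted p = 0.701) and passed with litter pair as a block (0.0483). The difference between ages in the genotype effect was -0.66 (SE 0.25, adjusted p = 0.614), called with the block (0.0437). With age Tgfbi fell, at log2 -2.82 in Aprt KO mice (adjusted p = 1.32e-09) and -2.16 in controls (adjusted p = 3.40e-08). A second Tgfbi probe set was dim, at the 7.6 percentile of mean signal (group means of 17.5, 21.7, 11.4 and 6.03 in 1-month KO, 1-month control, 7-day KO and 7-day control mice). It was not called in any comparison, and its sign at 1 month (-0.10, SE 0.23) and with age (0.14 in Aprt KO mice, 0.44 in controls) was opposite to that of the bright one.

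Mgp is best known from arteries and cartilage, where its carboxylated form keeps calcium salts from being deposited. At 7 days it showed a lowest, median and highest signal of 2504, 3315 and 4024.5 in Aprt KO mice, against 1010, 1429 and 1462 in controls. The lowest KO value exceeded the highest control by a wide margin, and the pairs differed by 1.17 to 1.53 on the log2 scale, all upward. Means were 3315 ± 545 and 1313 ± 202 (SD, n = 6 each), a log2 fold change of 1.32 (SE 0.15, limma adjusted p = 1.71e-05). Without the 4 arrays with an atypical Aprt signal it was 1.33 (adjusted p = 0.000538). The M-titled mice gave 1.27 (adjusted p = 0.00278) and the OA-titled mice 1.41, with 2 mice a group (adjusted p = 0.0554).

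At 1 month the Mgp signals were 733, 983 and 945 in Aprt KO mice and 514, 408.5 and 773 in controls. Pair 8 showed the widest gap, 1.21 on the log2 scale, pair 7 a gap of 0.49 and pair 9 of 0.28, and the KO mouse of pair 7 lay below the control of pair 9. In the fit the log2 fold change was 0.66 (SE 0.21, limma adjusted p = 0.413), called with litter pair as a block (0.0434). The genotype effect at 1 month minus that at 7 days was -0.65 (SE 0.26, adjusted p = 0.663), with the block 0.0821. With age Mgp fell, at log2 -1.90 in Aprt KO mice (adjusted p = 2.52e-07) and -1.25 in controls (adjusted p = 3.47e-05).

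Fn1 encodes fibronectin, on which cells assemble other matrix proteins and which integrins recognise. Its 1-month signals were 532, 623 and 539 in Aprt KO mice and 417, 422 and 462 in controls, with no overlap. Its log2 fold change was 0.36 (SE 0.13, limma adjusted p = 0.640), with litter pair as a block 0.166. At 7 days the lowest, median and highest signals were 1244, 1356 and 1437 in Aprt KO mice and 926, 1058 and 1347 in controls, where the control of pair 1 reached into the KO range. The KO mouse was higher in 6 of 6 pairs. The log2 fold change of 0.29 (SE 0.094, adjusted p = 0.127) was called with litter pair as a block (0.0347) and without the control of pair 1 (0.35, adjusted p = 0.0484). It was 0.19 within the M-titled and 0.50 within the OA-titled mice, neither of them called. The genotype effects at the 2 ages differed by 0.07 (SE 0.16, 95% interval -0.28 to 0.41). With age Fn1 fell, at log2 -1.22 in Aprt KO mice (adjusted p = 1.95e-07) and -1.29 in controls (adjusted p = 9.36e-08).

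**Figure D3:**
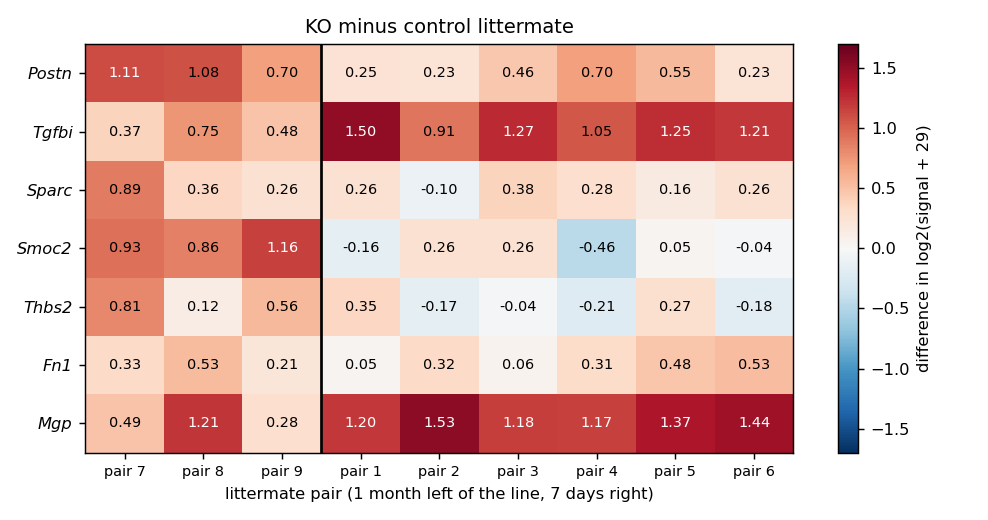
Difference in log2(signal + 29) between the Aprt KO mouse and its control littermate, 1 column per litter pair, with pairs 7 to 9 of 1 month left of the line and pairs 1 to 6 of 7 days right of it. All values at 1 month are above 0, Mgp and Tgfbi are the strongest rows at 7 days, and Smoc2 and Thbs2 mix both signs at 7 days.

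Read across the litters, the genes did not share one pattern. The KO mouse of pair 7 was the lowest of the 1-month KO mice for Postn, Tgfbi, Sparc, Mgp and Fn1, and its control littermate was the lowest for Postn, Tgfbi, Sparc, Thbs2 and Fn1. The control of pair 9 was the highest of the 1-month controls for 6 of the 7 genes, all but Thbs2. At 7 days pair 3 was highest for Postn and Thbs2 in both genotypes, and pair 4 for Tgfbi. Compared within pairs, the 7-day differences of Mgp and Tgfbi were above 0.9 in every pair, those of Postn and Fn1 were smaller and always upward, and Sparc was upward in 5 of 6 pairs. Being upward in every 7-day pair was the case for 7.66% of all genes.

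For Postn, Tgfbi, Sparc, Mgp and Fn1 mean signal was highest in 7-day Aprt KO mice, followed by 7-day controls, 1-month Aprt KO mice and 1-month controls. Smoc2 and Thbs2 had the 7-day genotypes level (804 ± 138 and 995 ± 178 in Aprt KO mice, 812 ± 130 and 1006 ± 251 in controls), followed by the same 1-month order. The 1-month Aprt KO mice lay wholly below the 7-day controls for Postn, Tgfbi, Thbs2, Mgp and Fn1, as was the case for 19.6% of all genes. For Sparc and Smoc2 the highest 1-month KO mouse (3305 and 663) was above the lowest 7-day control (3292 and 630.3).

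Non-overlap between ages covered 6 of 7 genes downward in Aprt KO mice, where it held for 22.1% of all genes, and 7 of 7 in controls, against 21% of all genes. The median log2 fold change with age of the 7 genes was -1.90 in Aprt KO mice and -1.54 in controls, against -0.12 and -0.11 over all genes. Median scaling of the arrays moved those all-gene medians to 0.13 in both genotypes and the share of calls that were upward to 65.2% in Aprt KO mice and 62.5% in controls, against 37.1% and 36.2% with the deposited scaling. The log2 fold changes of all 7 genes stayed below 0 under median scaling and quantile normalization, that of Smoc2 in Aprt KO mice without a call. No scan date or array batch is in the labels, so age and a batch that coincides with age cannot be told apart. In whole kidney, fewer cells of a type and less RNA per cell cannot be told apart either.

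**Figure D4:**
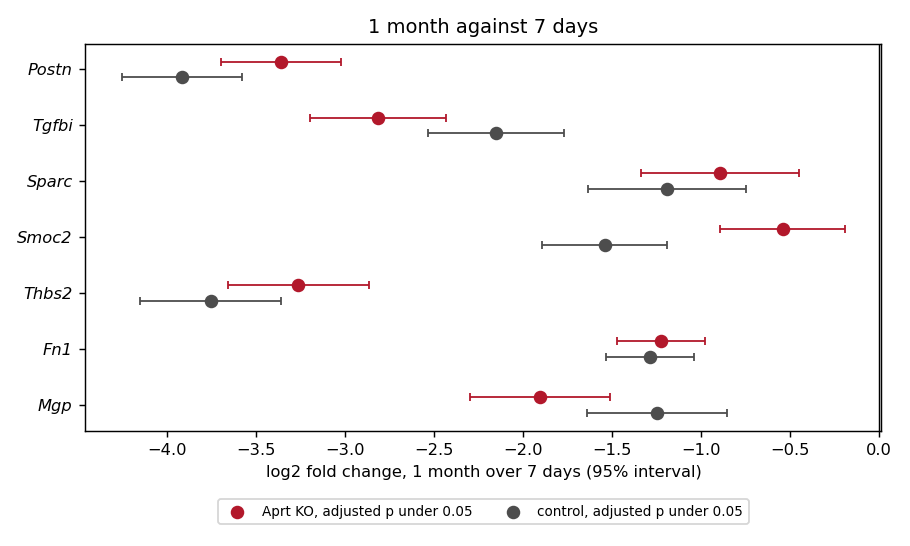
Log2 fold change of 1 month over 7 days in Aprt KO mice and in controls, with 95% intervals; filled points passed an adjusted p of 0.05. All 7 genes lie below 0 in both genotypes, from -3.36 for Postn to -0.54 for Smoc2 in Aprt KO mice and from -3.92 for Postn to -1.19 for Sparc in controls.

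The neighbouring matrix genes were summarised by lists, also chosen with earlier results of these data known. Counts with litter pair as a block have a wider background than the shares given without it. Over all 5744 genes the block gave at most 117 calls at 1 month and 522 at 7 days. Of 12 other matricellular genes tested, none was called at 1 month (median log2 fold change 0.33, 10 of 12 higher; 1 month calls covered 0.313% of genes), and 2 were called with litter pair as a block. At 7 days 3 of the 12 rose: the tenascin Tnc (1.30, SE 0.21, limma adjusted p = 0.0009), Sparcl1, a relative of Sparc (0.59, SE 0.14, 0.0243), and Ccn1, an integrin-binding CCN protein (0.52, SE 0.13, 0.0347). A dimmer second Tnc probe set gave 0.84 and was not called. Without the 4 arrays with an atypical Aprt signal Tnc was still called (1.58, adjusted p = 0.00195), and Sparcl1 (0.53, 0.188) and Ccn1 (0.42, 0.394) were not. With the block 4 of the 12 rose and 1 fell. Of 10 elastic fibre genes, all 10 were higher at 1 month (median 0.56). The microfibril gene Mfap2 rose (0.84, SE 0.17, adjusted p = 0.0442), though not without those 4 arrays (0.92, adjusted p = 0.186) or with median scaling (0.84, adjusted p = 0.0699), and 5 were called with the block. None of the 10 was called at 7 days (median 0.20), and 2 were with the block.

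Of 15 interstitial collagen genes tested, Col1a1 (1.47, SE 0.23), Col1a2 (1.102, SE 0.17) and Col3a1 (1.08, SE 0.16), chains of collagens I and III, rose at 1 month (limma adjusted p = 0.00653 each). The median of the 15 was 0.44, and 6 were called with litter pair as a block. A second Col1a2 probe set gave -0.15 (adjusted p = 1.0), and the dimmer probe sets of Col1a1 (0.70) and Col3a1 (0.78 and 0.59) were not called. None of these collagens was called without the 4 arrays with an atypical Aprt signal, with log2 fold changes of 1.44 for Col1a1 (adjusted p = 0.0561), 0.99 for Col1a2 (0.118) and 1.01 for Col3a1 (0.144). At 7 days none of the 15 was called (median 0.20), and 7 were with the block.

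Among 10 receptors for matricellular proteins none was called at 1 month (median 0.11), and the scavenger receptor Stab1 rose at 7 days (0.65, SE 0.13, limma adjusted p = 0.00769; median 0.12). With the block 3 receptors were higher and 1 lower at 7 days. Among 10 vitamin K and calcification genes, none was called at 1 month (median 0.02). At 7 days Pros1, protein S, another vitamin K-dependent protein, rose (0.73, SE 0.14, adjusted p = 0.00342), and the list's median was 0.01. Among 12 genes of the TGF-beta pathway none was called at 1 month (median 0.13, with 1 called under the block), and the transcriptional repressor Tgif1 rose at 7 days (0.51, SE 0.12, adjusted p = 0.0254; median 0.03), with 2 called under the block. None of the 3 was called without the 4 arrays with an atypical Aprt signal, where Stab1 had a log2 fold change of 0.63 (adjusted p = 0.099), Pros1 of 0.72 (0.0663) and Tgif1 of 0.39 (0.331). The call of Tgif1 was also lost with median scaling (0.49, adjusted p = 0.0582).

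**Figure D5:**
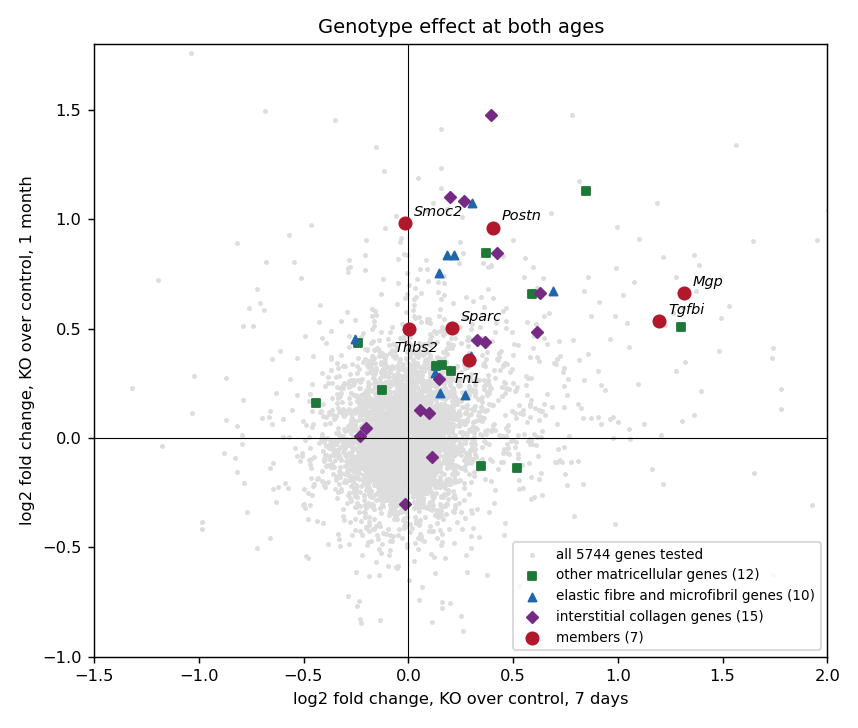
Log2 fold change of Aprt KO over control at 7 days (x axis) and at 1 month (y axis) for the 5744 genes tested in grey, the 7 described genes in red and 3 matrix lists in other colours; 21 genes lie outside the axes. Mgp and Tgfbi lie to the right, Postn and Smoc2 at the top, with Smoc2 close to 0 at 7 days.

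Markers of cell types moved with the same groups. At 1 month 5 of 10 fibroblast and pericyte markers rose (median log2 fold change 0.81), with Tcf21 at 0.96 and the matrix proteoglycan Lum at 0.90 beside Col1a1 and Col3a1. Col1a1 and Col3a1 also stand in the collagen list, so their calls are counted in both lists. The summed signal of the 12 fibroblast and pericyte markers on the array was 8963 to 10245 in 1-month Aprt KO mice and 4569 to 5729 in 1-month controls. At 7 days it was 24509 to 28787 in Aprt KO mice and 21634 to 27214 in controls. None of these markers was called at 1 month without the 4 arrays with an atypical Aprt signal, with a median of 0.94 and log2 fold changes of 1.01 for both Tcf21 (adjusted p = 0.172) and Lum (0.105). At 7 days 1 of the 10 was called (median 0.26, 7 of 10 higher), and 4 of the 10 with the block. It was Thy1, a surface protein of stromal cells and T cells (1.39, limma adjusted p = 0.000364). Tcf21 (-0.11) and Lum (-0.20) were lower at 7 days without a call.

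Of 16 macrophage and myeloid markers on the array, 10 reached the mean signal over all arrays required for testing. A marker high in 7-day Aprt KO mice could reach it through that group. All 10 were called higher at 7 days (median 1.57), against 2.54% of all genes. Among them were the elastase Mmp12 (4.25), the lysozyme Lyz2 (2.38), the endotoxin co-receptor Cd14 (1.74) and the complement subunit C1qa (1.49). A dimmer second Mmp12 probe set gave 2.83 and was called too. That of Lyz2, also dimmer, gave 0.07 and was not called. The sum over all 16 markers was 8584 to 14449 in 7-day Aprt KO mice and 3366 to 6003 in 7-day controls. Without the 4 arrays with an atypical Aprt signal 9 of the 10 tested were called. At 1 month none was called (median 0.48, 10 of 10 higher), with sums of 4200 to 5751 in Aprt KO mice and 3078 to 4044 in controls. Smooth muscle markers rose in 3 of 8 cases at 7 days, Tagln (0.84), the calponin Cnn1 (1.65) and the actin Acta2 (0.47). With median scaling 2 of the 8 were called, and Acta2 was not (0.44, adjusted p = 0.0869). Their sums were 12898 to 15403 in 7-day Aprt KO mice and 9636 to 12034 in 7-day controls. No smooth muscle marker was called at 1 month (median 0.41, 1 with the block), where sums were 4257 to 5089 in Aprt KO mice and 3231 to 3856 in controls. Adrenal markers, 4 tested, were not called, with a median of 1.78 at 1 month and -0.91 at 7 days. The sum of the 5 adrenal markers on the array varied widely. It ran from 987 to 4050 in 1-month Aprt KO mice and 663 to 1360 in 1-month controls. At 7 days it ran from 815 to 4166 in Aprt KO mice and 634 to 4653 in controls. The part of these cell types in the differences of the matricellular genes and Mgp was not tested.

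Of epithelial, vascular and other markers, none was called at 1 month among 9 proximal tubule (median 0.00), 8 thick limb and distal tubule (0.00), 9 endothelial (0.18), 3 podocyte (0.26), 2 urothelial (0.58), 4 fat (0.11) and 3 blood markers (0.10). At 7 days the thick limb and distal tubule genes Egf (-1.18) and Kcnj1 (-0.41) fell. From the blood list the anion exchanger Slc4a1 fell (-0.79), while the rest of the 3 stood at -0.31 and 0.16. Blood sums at 7 days overlapped, at 8728 to 33543 in Aprt KO mice and 7922 to 35580 in controls. From the urothelial list the keratin Krt7 rose (0.56), and the other of the 2 stood at -0.47. Without the 4 arrays with an atypical Aprt signal Slc4a1 was still called (-0.84, limma adjusted p = 0.00283), and Egf (-0.87, 0.0816), Kcnj1 (-0.33, 0.454) and Krt7 (0.46, 0.18) were not. The call of Kcnj1 was also lost with median scaling (-0.44, adjusted p = 0.0877). Dimmer second probe sets of Egf (0.10) and Kcnj1 (-0.45) were not called at 7 days. The 7-day medians were -0.31 for proximal tubule, -0.36 for thick limb and distal tubule, -0.19 for endothelial, -0.01 for podocyte, 0.05 for urothelial, -0.04 for fat and -0.31 for blood markers. With the block 6 proximal tubule, 5 thick limb and distal tubule and 2 endothelial markers were called lower at 7 days. Calls over all genes rose with the block too, to at most 522 of 5744 at 7 days. All 4 platelet markers on the array were below the signal required for testing, and summed to at most 223 on any array.

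Genes with the most similar pattern over all 18 arrays were found for each called gene by the root mean square difference of centred log2 values among 5743 other genes. Nearest to Postn were the collagen V chain Col5a2 (0.36), Thbs2 (0.38) and Lsp1 (0.40). Nearest to Smoc2 were Csnk1e (0.28), Slc29a1 (0.28) and Hopx (0.29). Tgfbi was closest to Pbx3 (0.39), D17H6S56E-5 (0.39) and Anxa3 (0.41), and Mgp to Anxa1 (0.36), Akr1b8 (0.36) and Plac8 (0.37). The 18 arrays of each gene share litters and the difference between ages, and this likeness is a description.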

How the data were processed

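Per the submitters' processing notes, the authors computed the deposited intensity signals with GCOS and MAS5; neither their versions nor the target value used in scaling could be read from the labels. The deposited signals are linear, with a trimmed mean (2% off each end) of 500.2 to 500.4 and a median of 160.1 to 216.4 per array. Depth does not apply to arrays; 3 to 6 mice a group limit the precision.

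Signals were tested as log2(signal + 29), 29 being the rounded 20th percentile, without further normalization, so fold changes of dim genes are understated. Of 12488 probe sets, 66 were controls, 10833 had 1 symbol in the platform annotation, 396 several and 1193 none. Each gene took its brightest single-symbol probe set and was kept at a mean signal of at least 118.6 (the 40th percentile over probe sets), leaving 5744 genes. limma 3.58.1 in R 4.3.3 (lmFit, eBayes with trend) was fitted to all 18 arrays with 4 groups and a sex term per age (12 residual degrees of freedom, median prior 5.7); tests are two-sided and Benjamini-Hochberg adjusted. The fit was tested on simulated data. Pandas 2.3.3 in Python 3.11.15 and matplotlib 3.10.9 made the descriptive tables and figures.

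The pairing comes from the labels, which name each mouse's littermate; in the 9 pairs, littermates' departures from their group means had correlations of 0.239 to 0.673 across genes. Litter pair as a block was an alternative fit, as were other pseudocounts, filters, scalings, probe set rules and sex terms, the ages apart, and each mouse, pair or group of doubtful arrays left out. Title prefix was added after seeing the data. Named genes were the described genes, up to 4 called genes per list and genotype comparison, the 3 nearest patterns of each called gene, and Aprt. The described genes and all gene lists were chosen with earlier results of these data known.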

Additional observations from a re-analysis of the deposited data

Results flagged for a closer look

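Among 14 groups of 6 mice, 2 held a mouse far from the others, and chance alone gives such a gap in about 1 in 20 groups. Postn in the 7-day Aprt KO mouse of pair 3 was 3058, with the next mouse at 2354.9 and the lowest at 2143.2, so the gap was 0.769 of the range. Thbs2 in the same mouse was 1342.7, with the next at 1010.2 and the lowest at 858.72, a gap of 0.687 of the range. The control littermate of that mouse was the highest 7-day control for both genes, at 2212 for Postn and 1377 for Thbs2. Without this KO mouse the 7-day log2 fold change of Thbs2 was -0.07 and that of Postn stayed uncalled by limma (adjusted p 0.00455 to 0.975 over all alternatives, called only with litter pair as a block).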

How the results depend on the processing

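Over 40 to 43 alternatives per comparison, the falls with age of all 7 genes kept their direction, and in controls all 287 values also stayed called; in Aprt KO mice 7 of 287 lost the call, all of Smoc2, and 6 to 7 genes were called with single mice or pairs left out. In the genotype comparison at 1 month no direction changed among 280 values, while 32 lost the call, all of Postn and Smoc2. The number of genes called at 1 month, 2 in the reported fit, was 0 with the pseudocount at the 40th percentile, with quantile normalization, with median scaling, with each age fitted on its own and without the arrays with an atypical Aprt signal, 1 with no sex term, and 4 with litter pair as a fixed or random block; it ran from 0 to 2 with single mice or pairs left out. At 7 days the count of 2 became 4 with either block, 1 (Tgfbi) within the OA-titled mice, and 2 to 3 in leave-outs. For the interaction the count of 0 became 2 with either block and 0 to 1 in leave-outs. The block ended none of the reported calls.

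Values near 0 changed sign. Thbs2 at 7 days was -0.0174 with median scaling, -0.12 without the arrays with an atypical Aprt signal and -0.018 within the M-titled mice, with leave-outs between -0.0858 and 0.0917. Smoc2 at 7 days was 0.16 without the arrays with an atypical Aprt signal and 0.0032 within the OA-titled mice, with leave-outs between -0.0814 and 0.10. The Fn1 interaction was -0.15 within the OA-titled mice and -0.0217 to 0.1403 in leave-outs. The cause was not tested.

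Calls over all genes at 1 month numbered 18 as reported, 28 with a pseudocount of 1, 7 with that at the 40th percentile, 10 with median scaling, 1 with the age alone, 79 and 117 with the fixed and random block, 3 without the arrays with an atypical Aprt signal, and 4 to 21 in leave-outs. At 7 days they numbered 185, 500 and 522 with the blocks, 97 without those arrays, 67 and 40 within M and OA titles, and 110 to 208 in leave-outs. The interaction gave 23, 93 and 142 with the blocks, 7 without those arrays, 12 and 0 within M and OA titles, and 8 to 37 in leave-outs. Age gave 2313 calls in Aprt KO mice, 1226 without those arrays and 1413 without the 1-month KO mouse of pair 7, and 2348 in controls, 1535 within OA titles and 1431 without the 1-month control of pair 7.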

Other observations

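Sex showed no split of these genes at 7 days beyond the ranges of the mice. In Aprt KO mice Mgp averaged 3350 in females and 3280 in males, and in controls 1298 and 1328 (3 mice each). Tgfbi averaged 1402 in Aprt KO females and 1469 in Aprt KO males, and 612 in control females and 614 in control males. Postn averaged 2566 in Aprt KO females and 2230 in Aprt KO males, and 1922 in control females and 1717 in control males, with overlapping ranges. Sex was not tested for these genes.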
